A study of Rattus norvegicus with 10 samples.

Results

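The 10 genes described here are carried by the mitochondrial DNA and encode core subunits of the respiratory chain: MT-ND1, MT-ND2, MT-ND4 and MT-ND5 of complex I, MT-CYB of complex III, MT-CO1, MT-CO2 and MT-CO3 of complex IV, and MT-ATP6 and MT-ATP8 of the ATP synthase, complex V. They were chosen by symbol in the study's table of gene names and found by Ensembl identifier among 32883 listed genes. All 10 had a value in every rat. The study modelled idiopathic intracranial hypertension, a disease of raised pressure around the brain, by feeding rats a high fat diet (HFD). RNA was sequenced from excised choroid plexus, the tissue of the brain ventricles that secretes cerebrospinal fluid. The animals were female Wistar rats, 27 weeks old, of which 5 had received a nutrient source-matched control diet with 10% of energy from fat and 5 the HFD with 60%, for 21 weeks from an age of 6 weeks. Each library came from 1 rat, without pooling. Rats entered the study's experiments by body weight, the control rats from the lighter and the HFD-fed rats from the heavier animals, so diet and body weight cannot be told apart.

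The respiratory chain passes electrons from NADH and succinate to oxygen through complexes I to IV, pumps protons across the inner mitochondrial membrane, and drives the ATP synthase. Complexes I, III, IV and V are each built from subunits of both genomes, while complex II is wholly nuclear. The mitochondrial genes of this set are transcribed as long precursors from the same strand and cut into separate RNAs afterwards. MT-ATP8 and MT-ATP6 have overlapping reading frames on a shared transcript, as have MT-ND4L and MT-ND4. The choroid plexus epithelium is rich in mitochondria.

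The authors' values were TPM, in which each gene's reads are divided by its effective length and scaled to the same total in every rat. TPM can thus be listed side by side between genes, but a difference between genes still depends on the effective lengths used. The files hold no read number, so the depth is unknown and no counting interval is given. TTR, the thyroid hormone carrier that marks this epithelium, took 32.2 to 39.7% of all TPM, and all 10 fixed epithelial markers were above 0 in every rat. Control rat 1 stood apart. Its mean effective transcript length, weighted by TPM, was 788.7 bases against 874.0 to 967.5 in the other 9 rats. In rescaled TPM 1737 of its genes differed more than 2-fold from the median rat of the rest. In each other rat 105 to 157 genes did so. The fold changes below, unless stated otherwise, are of rescaled TPM, TPM divided by a factor per rat taken from the median ratio over 12037 genes. For control rat 1 that factor was 0.752, and for the rest it ran from 0.951 to 1.14. The comparisons of the 10 genes are therefore given with and without control rat 1, and where it matters on TPM as deposited.

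As a set, the 10 genes took 7.85 ± 1.53% of all TPM in the control rats and 8.04 ± 0.591% in the HFD-fed rats (mean ± SD, n = 5 each). The control values were 10.5% in rat 1, 7.57% in rat 2, 6.84% in rat 3, 6.75% in rat 4 and 7.60% in rat 5. The HFD values were 8.11%, 8.46%, 8.74%, 7.52% and 7.36% in rats 1 to 5. Control rat 1 was above every other rat, HFD-fed rats 1, 2 and 3 were above the other 4 control rats, and HFD-fed rats 4 and 5 lay among them. The groups overlapped. The mean of the HFD-fed rats was 0.185 percentage points above that of all control rats and 0.846 above that of control rats 2 to 5 (7.19 ± 0.456%). With TTR left out of the total, the shares were 12.1 ± 3.03% in all control rats, 10.7 ± 0.615% in control rats 2 to 5 and 12.3 ± 1.36% in the HFD-fed rats. That difference was 0.220 percentage points with control rat 1 and 1.56 without it.

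The TPM of the 10 genes spanned a wide range in a nearly fixed order. On the deposited TPM scale MT-CO1, the catalytic core of cytochrome c oxidase, had the highest mean at 17610 ± 1422 over the 10 rats, followed by MT-ATP8 at 16150 ± 2119, the small accessory subunit of the ATP synthase membrane part. MT-CO3, a structural core subunit of complex IV, stood at 11970 ± 1766. MT-CO2, which receives electrons from cytochrome c, stood at 9575 ± 1862. Next came MT-ATP6, part of the proton channel of the ATP synthase, at 7943 ± 1801. MT-ND1, at the quinone site of complex I, had a mean of 5553 ± 1165 and MT-CYB, the cytochrome b of complex III, of 5398 ± 857. The membrane arm subunits of complex I that pump protons were the lowest, MT-ND2 with 2654 ± 673, MT-ND4 with 1756 ± 397 and MT-ND5 with 836.5 ± 101. Each gene was above the next in all 10 rats, with the exceptions of MT-CO1 over MT-ATP8, which held in 8 rats, and MT-ND1 over MT-CYB, which held in 6. Those neighbours did not differ beyond their spread. Among all listed genes MT-CO1 ranked between 2 and 3 in each rat and MT-CO3 at 4 in every rat, while MT-ND5 ranked between 75 and 146. MT-ATP8 is a very short gene, and the effective length used for TPM bears most on such genes. MT-ATP8 and MT-ATP6 share a transcript, yet their mean TPM were 16150 and 7943. The order is therefore one of TPM values, and whether it is also one of RNA amounts was not tested.

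**Figure D1:**
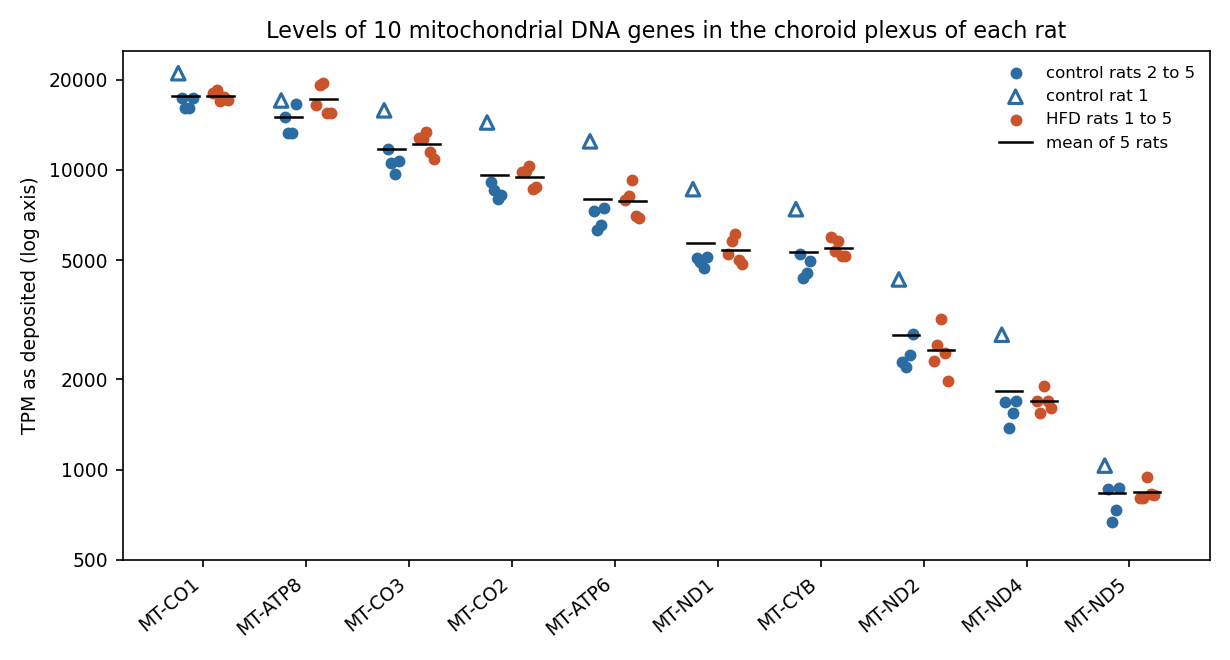
TPM as deposited (log axis) of the 10 genes in each rat, in order of their mean; filled points are single rats, the open triangle is control rat 1 and black lines are means of 5 rats. Control rat 1 lies above all other rats for every gene except MT-ATP8, and the remaining control rats and the HFD-fed rats overlap for all 10 genes.

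Which of these genes differed between the diets was tested with limma across 12183 genes, on log2 of rescaled TPM plus 0.1. None of the 10 genes had a Benjamini-Hochberg adjusted p under 0.05, and neither had any other gene (0.0% of 12183 genes called, with a smallest adjusted p of 0.542). At an unadjusted p under 0.05 the count was also 0 of 10, beside 1048 of all genes or 8.6%. The fitted log2 fold change, HFD against control, was below 0 for 9 genes and above 0 for MT-ATP8, where 52.7% of all genes were above 0, with a median of -0.09 beside a median of 0.01 over all genes tested. The 95% intervals were wide, from -0.46 to 0.27 for MT-CO1 as the narrowest to -0.85 to 0.37 for MT-ND2 as the widest. Differences within these intervals were not excluded with these rats.

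**Figure D2:**
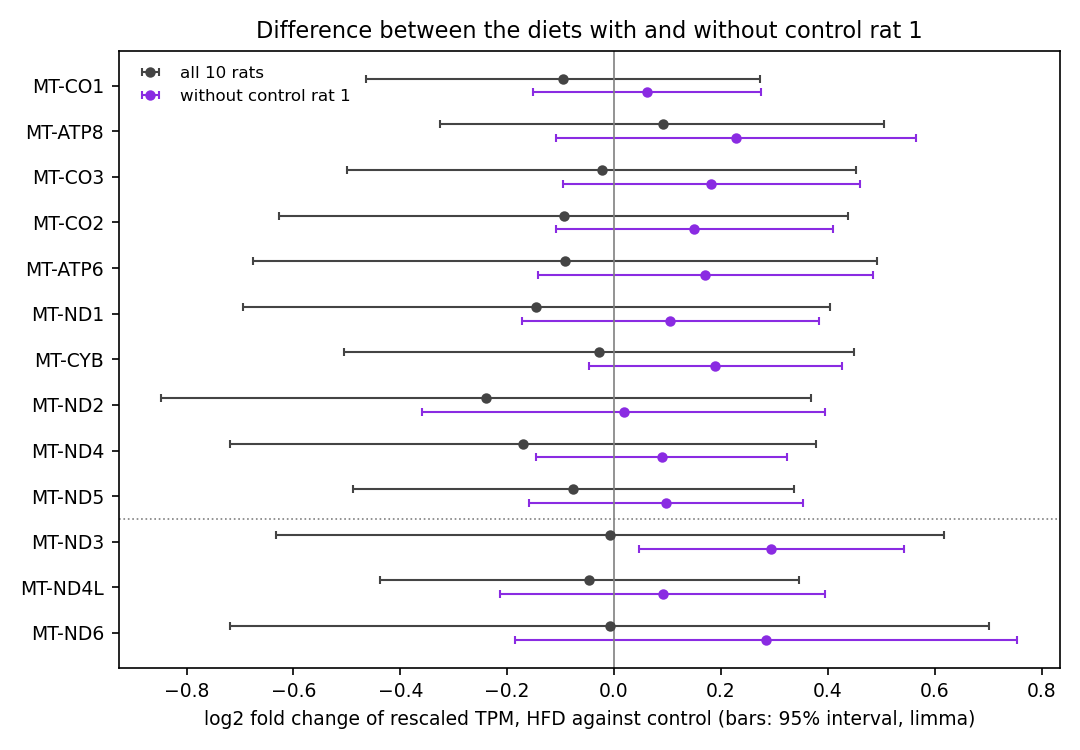
Log2 fold change of rescaled TPM, HFD against control, with the 95% interval from limma, for the 10 genes (above the dotted line) and the other 3 named genes of mitochondrial DNA (under it), with all 10 rats in grey and without control rat 1 in purple. Every interval but that of MT-ND3 without control rat 1 includes 0, and each point lies further right without that rat.

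Among the complex I genes MT-ND2 (ENSRNOG00000031033) had the lowest fold change of the set, -0.24 (SE 0.275, limma unadjusted p = 0.402, adjusted p = 0.705). Its deposited TPM were 4311, 2284, 2194, 2408 and 2839 in control rats 1 to 5 and 2305, 2602, 3169, 2448 and 1976 in HFD-fed rats 1 to 5. The highest value was in control rat 1 and the lowest in HFD-fed rat 5, and without control rat 1 the fold change was 0.02. MT-ND1 (ENSRNOG00000030644) measured 8628 TPM in control rat 1, 4694 to 5138 in the other control rats and 4859 to 6127 in the HFD-fed rats. Its fold change was -0.15 (SE 0.249), or 0.11 without control rat 1. MT-ND4 (ENSRNOG00000029707) measured 2819 TPM in control rat 1, 1375 to 1697 in the other control rats and 1548 to 1894 on the HFD. The fold change of MT-ND4 was -0.17 (SE 0.248), or 0.09 without control rat 1. MT-ND5 (ENSRNOG00000029971) had the narrowest spread of the HFD-fed complex I genes, 802.1 to 944.7 TPM, beside 666.5 to 864.8 in control rats 2 to 5 and 1031 in control rat 1. Its fold changes were -0.08 (SE 0.187) and 0.10.

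MT-CYB (ENSRNOG00000031766), the only subunit of complex III in mitochondrial DNA, measured 7397, 5256, 4355, 4531 and 4981 TPM in control rats 1 to 5. In HFD-fed rats 1 to 5 it measured 5969, 5370, 5788, 5169 and 5164 TPM. HFD-fed rats 1, 2 and 3 lay above control rats 2 to 5, and HFD-fed rats 4 and 5 were below control rat 2. The fold change of MT-CYB was -0.03 (SE 0.216, limma adjusted p = 0.960) with all rats and 0.19 (SE 0.106, limma unadjusted p = 0.104, adjusted p = 0.512) without control rat 1.

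In complex IV, MT-CO1 (ENSRNOG00000034234) varied least. Its TPM were 21036, 17387, 16115, 16048 and 17410 in control rats 1 to 5 and 18028, 18513, 16934, 17461 and 17148 in HFD-fed rats 1 to 5. The means were 17600 ± 2031 and 17620 ± 649, and the lowest and highest HFD-fed rat differed 1.09-fold. The fold change of MT-CO1 was -0.10 (SE 0.168), or 0.06 without control rat 1. MT-CO2 (ENSRNOG00000030371) measured 14404 TPM in control rat 1, 7972 to 9098 in control rats 2 to 5 and 8627 to 10310 on the HFD. MT-CO3 (ENSRNOG00000030700) measured 15814 TPM in control rat 1, 9719 to 11783 in control rats 2 to 5 and 10901 to 13389 on the HFD. For both, HFD-fed rats 1, 2 and 3 were above control rats 2 to 5. Their fold changes were -0.09 (SE 0.241) and -0.02 (SE 0.216) with all rats, and 0.15 and 0.18 without control rat 1.

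In the ATP synthase, MT-ATP6 (ENSRNOG00000031979) measured 12461, 7300, 6326, 6547 and 7463 TPM in control rats 1 to 5 and 7933, 8211, 9230, 7031 and 6932 in HFD-fed rats 1 to 5. MT-ATP8 (ENSRNOG00000033299) measured 17061, 14984, 13319, 13333 and 16661 TPM in control rats 1 to 5 and 16514, 19197, 19560, 15456 and 15454 in HFD-fed rats 1 to 5. For MT-ATP8 the highest rats were HFD-fed rats 2 and 3, both above control rat 1, and the remaining HFD-fed rats lay within the control range. The fold change of MT-ATP6 was -0.09 (SE 0.265) and that of MT-ATP8 0.09 (SE 0.188). Without control rat 1 they were 0.17 and 0.23, the latter the highest of the set (limma unadjusted p = 0.162, adjusted p = 0.582).

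The ratio of MT-ATP8 to MT-ATP6 needs no scaling between rats, but it still depends on the effective lengths used for TPM. The part of these lengths in the ratio was not tested. It was 1.37 in control rat 1 and 2.05, 2.11, 2.04 and 2.23 in control rats 2 to 5. In HFD-fed rats 1 to 5 it was 2.08, 2.34, 2.12, 2.20 and 2.23. Control rat 1 had the lowest ratio, apart from the narrow range of the other 9 rats, and the groups overlapped. The log2 ratio was 0.18 higher on the HFD (exact two-sided permutation test, p = 0.103; the smallest p that the 252 assignments allow is 0.00794). Without control rat 1 the difference was 0.06 (exact p = 0.214). Of the comparisons that leave out 1 rat it was largest without control rat 5, at 0.23 (exact p = 0.0159). That comparison keeps control rat 1 and its low ratio.

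**Figure D3:**
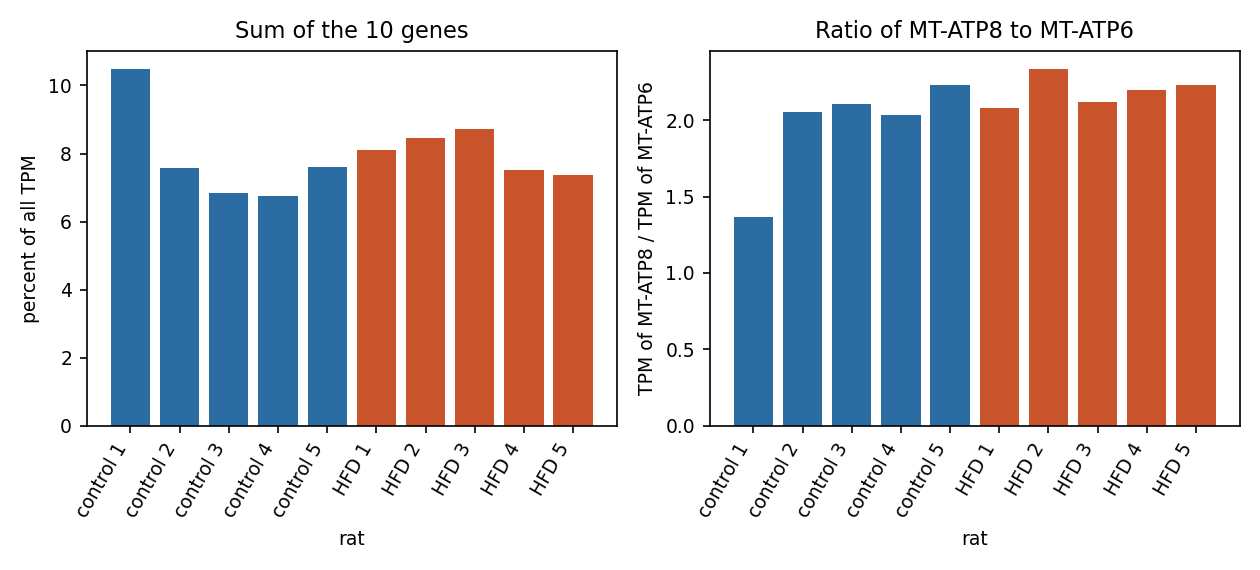
Left, the percent of all TPM taken by the 10 genes in each rat; right, the TPM of MT-ATP8 divided by that of MT-ATP6; bars are single rats, blue for control rats and orange for HFD-fed rats. Control rat 1 has the highest share, 10.5%, and the lowest ratio, 1.37.

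Leaving out control rat 1 turned the direction of the set. In the fit of the other 9 rats all 10 genes had a mean above that of the control rats, by 0.02 for MT-ND2 to 0.23 for MT-ATP8, with a median of 0.13 beside 0.00 over all genes tested. In that fit 50.3% of all 12267 genes had a higher mean on the HFD. None of the 10 passed an unadjusted p under 0.05 in limma, beside 11.7% of all genes, and 0 of all genes passed after adjustment (0.0%). The groups overlapped for all 10 genes with and without that rat. In rescaled TPM the HFD-fed rats lay wholly above the control rats for 1.4% of genes and wholly under them for 2.02%, or 2.23% and 2.73% without control rat 1. On the deposited scale these shares were 1.32% and 0.335%, or 1.51% and 1.09% without that rat.

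The scaling mattered as well. On the deposited scale and with all rats, 7 genes had a higher and 3 a lower mean on the HFD, from -0.14 for MT-ND2 to 0.19 for MT-ATP8, where 73.0% of all genes had a higher mean. The median over the 10 genes was 0.01, below the 0.12 over all genes tested, and none had an unadjusted p under 0.05 (5.11% of all genes had). Leaving out control rat 1 on that scale, all 10 were higher (54.3% of all genes were), and 4 had an unadjusted limma p under 0.05, where 7.1% of all genes did and 4.09% did so with a higher level on the HFD. By limma these were MT-CYB with 0.20 (SE 0.068, unadjusted p = 0.0126), MT-CO3 with 0.20 (SE 0.072, unadjusted p = 0.0205), MT-ATP8 with 0.24 (SE 0.093, unadjusted p = 0.0241) and MT-CO2 with 0.16 (SE 0.065, unadjusted p = 0.0295). Their adjusted p lay between 0.621 and 0.663, and 0 genes of the whole table passed after adjustment. In the exact permutation test MT-CYB had p = 0.0317 and the other 9 genes between 0.0556 and 0.833. The 10 genes are not independent, since they come from shared precursors in the same rats.

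HFD-fed rat 3 was highest of its group for 8 of the 10 genes on the deposited scale, the exceptions being MT-CYB and MT-CO1. With both that rat and control rat 1 left out, 9 of the 10 fitted differences were above 0, from 0.01 for MT-ND4 to 0.15 for MT-ATP8, and that of MT-ND2 was -0.10. The median was then 0.06, with 0 of 10 at an unadjusted p under 0.05 in limma beside 10.3% of all genes.

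Control rat 1 carried most of the spread in the control group for most of the 10 genes, but less for MT-ND5 and least for MT-ATP8. The SD of deposited TPM in the control group was 1774 with and 1596 without that rat for MT-ATP8, and 140.0 and 98.6 for MT-ND5. On the deposited scale control rat 1 was above all 9 other rats for 9 of the 10 genes, and in rescaled TPM for 10 of 10. Its distance from the median of the others on the deposited log2 scale ran from 0.14 for MT-ATP8 and 0.28 for MT-CO1 to 0.77 for MT-ATP6 and 0.84 for MT-ND2. MT-ND5, the lowest gene, was 0.32 above and MT-CO2 0.72. That distance was thus not the same for all genes. Among the TPM of the 10 genes in control rat 1, MT-CO1 took 20.0% against 22.9 to 23.8% in control rats 2 to 5, and MT-ATP8 16.3% against 19.5 to 21.9%. MT-ND1 took 8.22% against 6.73 to 7.22%, and MT-ATP6 11.9% against 9.25 to 9.83%. The HFD-fed rats ranged from 19.4 to 23.3% for MT-CO1, 20.4 to 22.7% for MT-ATP8, 6.47 to 7.02% for MT-ND1 and 9.35 to 10.6% for MT-ATP6.

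**Figure D4:**
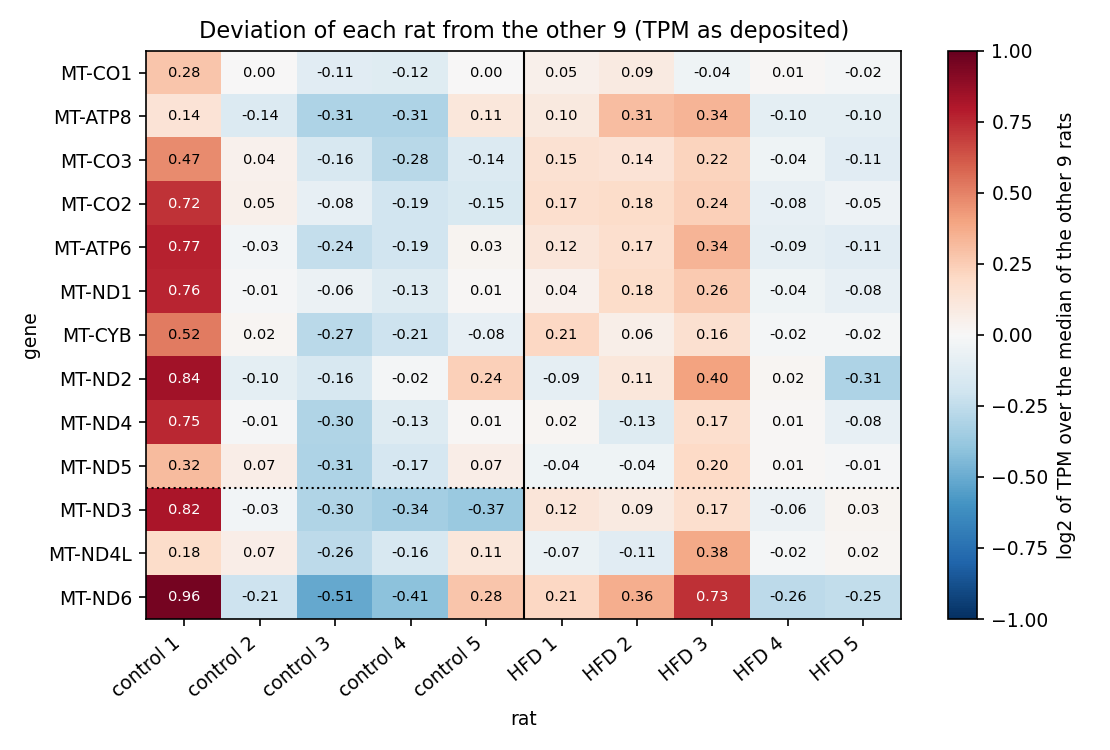
Log2 of each rat's deposited TPM over the median of the other 9 rats, for the 10 genes and, under the dotted line, the other 3 named genes of mitochondrial DNA; red is above and blue below the others. The column of control rat 1 is above 0 throughout, from 0.14 for MT-ATP8 to 0.96 for MT-ND6, and those of control rats 3 and 4 are below 0 throughout.

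Other rats deviated by less. HFD-fed rat 3 was above the median of the others by 0.23 at the median of the 10 genes, and HFD-fed rat 2 by 0.13, but MT-CO1 in rat 3 (-0.04) and MT-ND4 (-0.13) and MT-ND5 (-0.04) in rat 2 lay below that median. Control rat 3 was below all other rats for 5 of the genes and control rat 4 for 4. The rats with the highest levels were those with the shortest mean effective length, 788.7 bases in control rat 1, 874.0 in HFD-fed rat 3 and 882.5 in HFD-fed rat 2. They were also those with the highest share of TTR, 39.7, 38.2 and 36.0% of all TPM. The mean effective length is weighted by TPM and so includes TTR and the 10 genes themselves. It is therefore not independent of their levels. The part of transcript length, or of RNA quality, in these levels was not tested. In control rat 1, 3 of the 10 epithelial markers were above and 7 below the median of control rats 2 to 5 in rescaled TPM. In deposited TPM TTR was above control rats 2 to 5 there, at 397356 against 322165 to 341632, and FOLR1 was within their range. The other epithelial markers were below that range. Among these, KL, the anti-ageing protein klotho, was at 203.8 TPM against 393.2 to 418.7, and AQP1, a water channel, at 276.8 against 569.8 to 663.2. In rescaled TPM KL was still below control rats 2 to 5, at 271.2 against 376.4 to 411.1. The epithelial marker HTR2C was within their range on that scale, at 375.1 against 369.9 to 422.2. In deposited TPM RGS5, the only named marker of mural cells, was at 32.0 against 108.8 to 115.4. DCN (stroma) was at 86.9 against 141.3 to 235.2 and the sum of the 2 named macrophage markers at 323.6 against 521.5 to 632.4. PLVAP, the only named endothelial marker, was higher at 72.8 TPM against 56.3 to 63.1, and RARRES2, the only named ependymal marker, was at 56.5 within the range of 42.2 to 58.4. In rescaled TPM both were above control rats 2 to 5, PLVAP at 96.8 against 53.4 to 62.0 and RARRES2 at 75.2 against 41.1 to 57.3. The 4 named haemoglobin genes summed to 5826 deposited TPM in control rat 1, the median of its group. The sum ranged from 3828 to 6988 in the control rats and from 3500 to 7031 in the HFD-fed rats. In rescaled TPM all 4 were above the median of control rats 2 to 5 in control rat 1. Their mean log2 value was 10.383 there, against 9.435 to 10.349 in control rats 2 to 5. Markers of neurons, astrocytes and oligodendrocytes were not analysed here. The part of cell makeup in the levels of the 10 genes was not tested, and in tissue samples fewer cells of a type and less RNA per cell cannot be told apart.

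The 10 genes moved together from rat to rat. Over the 9 rats without control rat 1, Pearson's r of log2 rescaled TPM between 2 of them ran from 0.655 to 0.982 over the 45 pairs, with a median of 0.863, and the lowest pair was MT-ND2 with MT-CYB. With all 10 rats the median was 0.953. These correlations are a description, since the genes share each library, its scaling and their precursors. Among 1978 named nuclear genes, those most like the mean of the 10 genes over the 9 rats were HNRNPA3 (r = 0.906), HSPB6 (0.898), NPM1 (0.889), HMGN1 (0.885) and NCL (0.874). They were picked as the highest of 1978 values of r over only 9 rats. Such a choice yields high r also among unrelated genes, so a link to the 10 genes is not shown. HSPB6 encodes a small heat shock protein, HNRNPA3 an RNA-binding protein, HMGN1 a nucleosome-binding protein, and NPM1 and NCL abundant nucleolar proteins. With control rat 1 included, HSPB6 had r = 0.976 and HMGN1 0.581, whereas NCL had 0.291, NPM1 -0.098 and HNRNPA3 -0.695. The likeness of the last 3 thus held only among the 9 rats. HSPB6 measured 87.6 rescaled TPM in control rat 1 and 37.6 to 55.2 in the other 9 rats, so its r over all 10 rats leans on control rat 1.

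Names were also given for 3 other genes of mitochondrial DNA. MT-ND3 (ENSRNOG00000033615), a complex I subunit, measured 7633, 4325, 3567, 3479 and 3416 TPM in control rats 1 to 5 and 4691, 4600, 4857, 4227 and 4405 in HFD-fed rats 1 to 5. Its fold change was -0.01 (SE 0.283, limma adjusted p = 0.992) with all rats. Without control rat 1 it was 0.29 (SE 0.111, limma unadjusted p = 0.0243, adjusted p = 0.359). On the deposited scale 4 of the 5 HFD-fed rats then lay above all remaining control rats (exact permutation test, p = 0.0159). In rescaled TPM 3 of the 5 did (exact permutation test, p = 0.0635). With HFD-fed rat 3 left out as well, the fold change was 0.24 (limma unadjusted p = 0.0575). MT-ND4L, whose reading frame overlaps that of MT-ND4, had -0.05 and 0.09, and MT-ND6, encoded on the opposite strand, -0.01 and 0.28. No strand setting is stated for the counting, so reads of MT-ND6 and of RNA from the opposite strand cannot be told apart. The ribosomal RNA genes were not analysed here.

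The nuclear subunits of the same complexes mostly had lower means on the HFD, with and without control rat 1. The gene names come from the top of a table of all genes, and so hold mostly abundant ones, and for 18 identifiers only from the study's table of genes it called changed on these samples. That second table alone named 0 of the 10 members and 1 nuclear subunit, UQCR10, and it lists 9 of the nuclear subunits in all, so those are not independent evidence of a direction. Of 68 named nuclear subunits tested, 38 had an unadjusted limma p under 0.05 with a lower level on the HFD and 0 with a higher level, beside 4.83% lower and 3.77% higher of all genes. The median log2 fold change of the 68 was -0.23 with all rats and -0.16 without control rat 1, where 37 had an unadjusted p under 0.05 and a lower level, as had 6.33% of all genes. Leaving out the 9 subunits of the study's second table, the counts were 30 of 59 with all rats and 29 of 59 without control rat 1. None passed after adjustment over all genes in either fit (0.0% of all genes did). The test of these subunits against the 10 mitochondrial genes was not run, and the values stand side by side only.

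**Figure D5:**
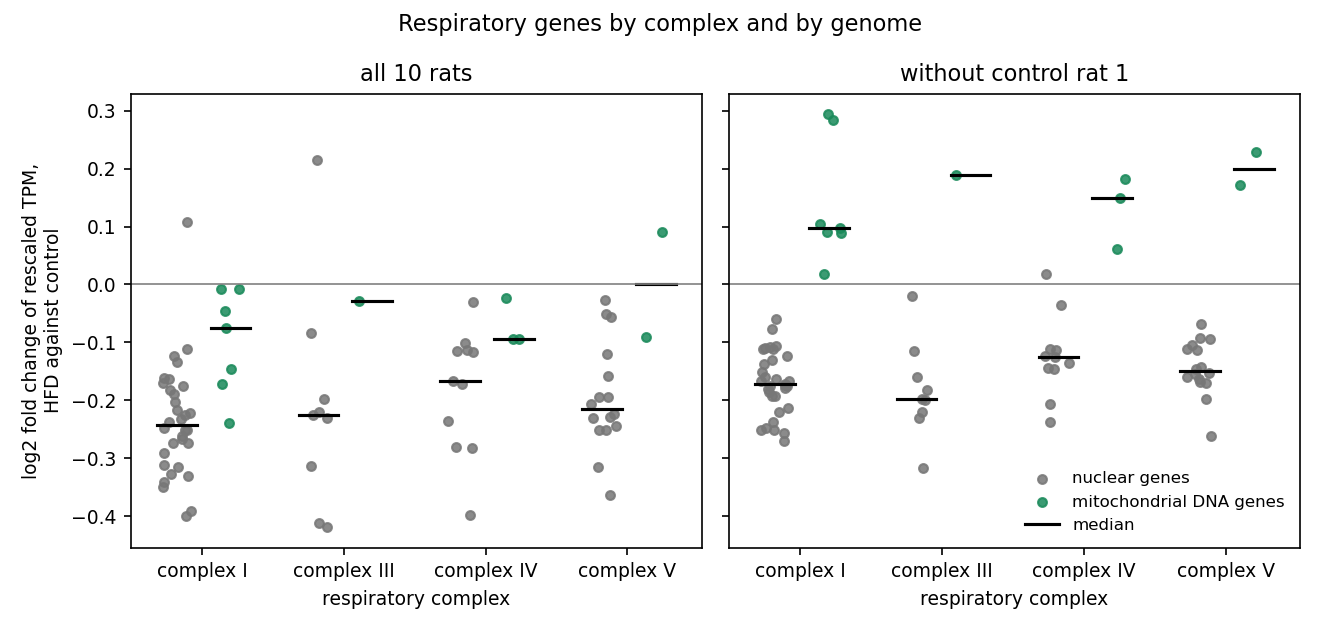
Log2 fold change of rescaled TPM, HFD against control, of nuclear (grey) and mitochondrial DNA (green) genes in each complex, with all 10 rats on the left and without control rat 1 on the right; each point is a gene, black lines are medians, and the green points include MT-ND3, MT-ND4L and MT-ND6. Without control rat 1 all 13 mitochondrial genes are above 0 and 67 of the 68 nuclear genes below it.

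By complex, 21 of 32 named nuclear subunits of complex I were lower with an unadjusted p under 0.05, with a median of -0.24. Among them NDUFC1 and NDUFB6, small membrane arm subunits, had -0.32 (SE 0.077) and -0.27 (SE 0.067), and NDUFA6 and NDUFV3 -0.33 and -0.35. NDUFC1 measured 178.0 ± 11.8 rescaled TPM on the HFD and 221.8 ± 19.7 on the control diet. With all rats the 4 complex I genes of the set had -0.08 to -0.24, and without control rat 1 0.02 to 0.11. Those 4 nuclear genes, named for the smallest p of the 32, then had -0.25 to -0.27. The median of all 32 was -0.17 without control rat 1.

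In complex III, 6 of 9 nuclear subunits were lower at that threshold, with a median of -0.23. UQCRQ, a small subunit of the membrane part, had -0.42 (SE 0.120), UQCR11 -0.31, the core protein UQCRC1 -0.20 and CYC1, the cytochrome c1, -0.23. Their mitochondrial partner MT-CYB had -0.03, and 0.19 without control rat 1. In that fit the 9 nuclear subunits had a median of -0.20, with UQCRQ the lowest at -0.32.

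In complex IV the count was 3 of 11, COX6A1 (-0.28), COX5B (-0.40) and COX5A (-0.23, or -0.14 without control rat 1), with a median of -0.17. COX5B measured 1565 rescaled TPM in control rat 1, 841.8 to 941.8 in control rats 2 to 5 and 734.4 to 790.8 on the HFD, so that the groups did not overlap. It had -0.24 without control rat 1, the lowest of the 11 nuclear subunits, which had a median of -0.13 and a highest value of 0.02. In that fit the 3 mitochondrial genes of the complex had 0.06 to 0.18. In complex V the count was 8 of 16, with a median of -0.21. ATP5MC1 and ATP5MC3, which both encode the c subunit of the rotor ring, had -0.36 (SE 0.110) and -0.20 (SE 0.059), the catalytic beta subunit ATP5F1B -0.21, and the stalk subunit ATP5PO -0.19.

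Fewer nuclear subunits had an unadjusted p under 0.05 with a lower level when TPM as deposited were fitted with all rats, 11 of 32 in complex I, 2 of 9 in complex III, 3 of 11 in complex IV and 3 of 16 in complex V, where 1.26% of all genes did. Once control rat 1 was left out on that scale, the counts were 19, 6, 5 and 9, beside 3.01% of all genes.

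Of the nuclear machinery for these genes little was named. No gene of the fixed lists for transcription and upkeep of mitochondrial DNA (0 of 15) or for translation factors (0 of 13) had a name in the table, and 2 of 17 for RNA processing had. HSD17B10, a subunit of mitochondrial RNase P, which cuts the precursors, had a fold change of -0.15 (SE 0.081, limma unadjusted p = 0.0977, adjusted p = 0.576), and -0.09 without control rat 1. GRSF1, an RNA-binding protein of mitochondrial RNA granules, had -0.04 in both fits. ESRRA, a nuclear receptor that drives genes of oxidative metabolism and the only 1 of 9 regulators named, measured 76.7 ± 6.57 rescaled TPM in control rats and 60.8 ± 5.31 in HFD-fed rats. Its fold change was -0.33 (SE 0.081, limma unadjusted p = 0.00183, adjusted p = 0.542), and -0.34 without control rat 1. For TPM as deposited ESRRA had -0.23 (limma unadjusted p = 0.13).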

How the data were processed

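Sequencing libraries of total RNA, 1 per rat, were read as pairs of 150 bases with 12 Gb of output requested. Alignment by the authors was to Rnor_6.0 with STAR, followed by RSEM 1.3.3 for quantification. The submitters' processing notes name STAR 2.7.2a. The deposited TPM and the deposited FPKM, a constant multiple of TPM within a rat that gave only the mean effective length, are rounded to 2 decimals. The authors' count-based test was not repeated, as no counts were used here. Near-identical nuclear copies of mitochondrial DNA can share reads.

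TPM were rescaled by median ratios over genes above 0 in all rats with a mean TPM of at least 1. Those reaching a mean of 1 after rescaling entered the test on log2(rescaled TPM + 0.1) with limma 3.58.1 (R 4.3.3; lmFit, eBayes with trend), diet being the only term, with Benjamini-Hochberg adjustment. Fold changes are on that scale, which understates those of low genes. Exact two-sided permutation tests compared mean log2 values over 252 assignments of rats, or 126 without control rat 1. Simulated data with known changes in 200 genes were used to check the fit. At an adjusted p under 0.05 it recovered 0% of them at a log2 change of 0.3, 76% at 1 and 92.5% at 2. A lack of calls after adjustment thus does not exclude changes of about 0.3. Other steps used python 3.11.15 with pandas 2.3.3 and scipy 1.17.1.

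Groups and rat numbers came from the sample titles. Names of 2015 identifiers came from the study's tables, which were held in part. Named genes were all members, the other named genes of mitochondrial DNA, up to 4 genes per fixed list with an unadjusted p under 0.05 (or the 1 with the smallest p), the 5 genes most like the members, and markers that stood apart in control rat 1, the last, GRSF1 and UQCR10 chosen after their values were seen. Members and lists were chosen with earlier results of these data known. Same-numbered rats had correlated deviations of -0.038 to 0.116, so numbers were not treated as pairs. Alternatives were another scaling, pseudocount, filter or variance model, a replicate block, and each rat left out. Leaving out HFD-fed rat 3 with control rat 1, leaving out nuclear subunits that the study's table of changed genes lists, and setting each rat against the others, were added after seeing the data.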

Additional observations from a re-analysis of the deposited data

Results flagged for a closer look

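Within each diet group of 5 rats the gap between the most extreme rat and its nearest neighbour was divided by the range of the group and set against Dixon's critical value of 0.71. Of 56 groups of values examined 21 passed, where about 2.8 would by chance if the values were independent, and 18 of the 21 were control rat 1. The values are not independent of each other, since the genes share precursors and libraries and each gene was examined on both scales. Control rat 1 had already been set apart in the comparisons above, and its factor of 0.752 raises all its rescaled values. The 21 are therefore a description and no test against the 2.8.

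In rescaled TPM, control rat 1 stood apart for MT-ND1 (11477), MT-ND2 (5735.3), MT-ND4 (3750.3), MT-CYB (9839.4), MT-CO1 (27984), MT-CO2 (19161), MT-CO3 (21037) and MT-ATP6 (16577). Of the other named genes of mitochondrial DNA it did so for MT-ND3 (10154) and MT-ND6 (1983.1). With TPM as deposited, that rat stood apart for MT-ND1 (8627.8), MT-ND4 (2819.2), MT-CO1 (21036), MT-CO2 (14404), MT-ATP6 (12461) and MT-ND3 (7633.0). Its share of all TPM in the 10 genes, 10.496%, and its ratio of MT-ATP8 to MT-ATP6, 1.3692, stood apart too, at opposite ends of the group. MT-ATP8 and MT-ND5 passed on neither scale in the control group.

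HFD-fed rat 3 stood apart in its group for MT-ND4L, with 3256.2 rescaled TPM and 3095.0 TPM as deposited, and for MT-ND5 with 944.74 TPM as deposited.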

How the results depend on the processing

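No member passed an adjusted p under 0.05 in limma under any alternative run, and the count at an unadjusted p under 0.05 was 0 under all but 1. It was 4 on the deposited scale with control rat 1 left out. Pseudocounts of 1 and 0.01, both filters, the robust fit and the fit without trend changed no member's sign. On the deposited scale the sign turned for MT-ND5 (0.028), MT-CYB (0.075), MT-CO1 (0.008), MT-CO2 (0.009), MT-CO3 (0.081) and MT-ATP6 (0.012), and with scaling to nuclear genes other than TTR for the same genes (0.031, 0.078, 0.011, 0.012, 0.084 and 0.015). Under upper-quartile rescaling it turned for MT-CYB (0.001) and MT-CO3 (0.007). With array weights, which lower the weight of deviating rats, 9 turned: MT-ND1 (0.124), MT-ND2 (0.028), MT-ND4 (0.111), MT-ND5 (0.132), MT-CYB (0.222), MT-CO1 (0.069), MT-CO2 (0.177), MT-CO3 (0.225) and MT-ATP6 (0.200). Without control rat 1 on the deposited scale the same 9 gave 0.117, 0.030, 0.101, 0.109, 0.202, 0.074, 0.163, 0.195 and 0.183. With control rat 1 and HFD-fed rat 3 left out 8 turned: MT-ND1 (0.025), MT-ND4 (0.013), MT-ND5 (0.021), MT-CYB (0.136), MT-CO1 (0.042), MT-CO2 (0.086), MT-CO3 (0.115) and MT-ATP6 (0.077). The cause was not tested.

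Over the fits that leave out 1 rat each, the ranges were -0.233 to 0.105 for MT-ND1, -0.364 to 0.018 for MT-ND2, -0.291 to 0.089 for MT-ND4, -0.182 to 0.097 for MT-ND5, -0.123 to 0.189 for MT-CYB, -0.156 to 0.062 for MT-CO1, -0.181 to 0.150 for MT-CO2, -0.111 to 0.182 for MT-CO3, -0.195 to 0.171 for MT-ATP6 and 0.009 to 0.228 for MT-ATP8. The highest was without control rat 1 in every case. Without HFD-fed rat 4 or 5, MT-CYB and MT-CO3 turned too. The median of the members ran from -0.170 to 0.128, the difference in their share of TPM from -0.090 to 0.846 percentage points, and that in log2 MT-ATP8 to MT-ATP6 from 0.058 to 0.234.

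Over all genes, 1 passed after adjustment with no filter and 3 with array weights. The number at an unadjusted p under 0.05 was 624 on the deposited scale, 618 with a minimum mean TPM of 10, 1869 with array weights, and 794 to 1440 with 1 rat left out.

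With the replicate number as a block, the member fold changes were as without it (-0.240 to 0.091), 1141 genes reached an unadjusted p under 0.05, 0 reached an adjusted one, and 1 of 5 numbers correlated best with its own. The block gave the ratio of MT-ATP8 to MT-ATP6 an exact p of 0.125. No depth was known, so precision from counting is not given.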

Other observations

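For the markers of cell types in the choroid plexus, log2 fold changes of rescaled TPM, HFD against control, are given first with all rats and then without control rat 1, for the epithelial markers with an unadjusted p under 0.05 in either fit and the first marker by p of each other cell type. HTR2C, a serotonin receptor of the epithelium, had 0.20 and 0.19, with an unadjusted p under 0.05 in both fits but an adjusted limma p of 0.542 with all rats. KL had 0.27 and 0.16, with an adjusted limma p of 0.564. AQP1 had -0.05 and -0.18, with an unadjusted limma p of 0.719 and 0.0217 and an adjusted p of 0.878 and 0.349. PLVAP of fenestrated endothelium had -0.19 and -0.05, RGS5 of mural cells 0.36 and 0.09, and DCN of the stroma 0.30 and 0.19. CD74 of antigen-presenting cells had 0.12 and 0.12, the haemoglobin gene HBA-A1 -0.30 and -0.14, and RARRES2 of ependymal cells -0.04 and 0.09. LYZ2, the other named macrophage marker, had 0.09 and -0.04, so CD74 and LYZ2 differed in direction without control rat 1. None of the markers from PLVAP on had an unadjusted limma p under 0.05 in either fit. The whole epithelial list had a median of 0.08 with all rats and 0.04 without control rat 1.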
